A study of Homo sapiens with 3 samples.

Results

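The miR-29 and miR-101 families are microRNAs (miRNAs) best known for repressing enzymes that write repressive marks on DNA and histones. Their members were taken as every mature miRNA that the deposited table listed for the hairpins hsa-mir-29a, hsa-mir-29b-1, hsa-mir-29b-2, hsa-mir-29c, hsa-mir-101-1 and hsa-mir-101-2, with both arms counted and the counts of a mature name added over its hairpins. These 6 hairpins gave 9 mature miRNAs, 7 of miR-29 and 2 of miR-101, among 2590 mature names in the table. They were followed in 3 small RNA libraries of Flp-In T-REx 293 cells, a line derived from human embryonic kidney HEK293 cells that carries a tetracycline repressor. The control cells carried a lentiviral vector without a miRNA, and the other lines carried the same vector with a miR-1 or a miR-122 hairpin in the intron of a GFP reporter, under a doxycycline-inducible CMV promoter. All lines, the control included, were selected in Geneticin at 1 mg/mL for 6 days and then kept in doxycycline at 1 ug/mL for 7 days. Where 3 values follow each other without a label, they stand for control, miR-1 and miR-122 cells in that order. There was 1 library per line, so no difference below has a replicate check, no test between conditions was made, and every interval covers counting error only.

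A miRNA guides Argonaute to messenger RNAs that pair with its seed, bases 2 to 8 from the 5′ end. Each hairpin is cut to a duplex of a 5p and a 3p arm, and usually 1 arm is kept as the guide while the passenger arm decays. In miR-29 and miR-101 the 3p arm is the well-known guide. The miR-29 guides are known to repress the DNA methyltransferases DNMT3A and DNMT3B, the 5-methylcytosine oxidases of the TET family, and collagens and other matrix genes in fibroblasts. The miR-101 guide is known to repress EZH2, the histone H3 lysine 27 methyltransferase of Polycomb repressive complex 2. No messenger RNA was measured in these libraries.

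The guide sequences are shown because the 3 miR-29 guides share a seed and differ by few bases, so that reads can be hard to assign. They were taken from RefSeq (GRCh38.p14), which held all 9 members, and the seed is in capitals.
miR-29a-3p: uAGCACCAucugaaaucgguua
miR-29b-3p: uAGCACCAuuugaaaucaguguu
miR-29c-3p: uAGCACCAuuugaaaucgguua
miR-101-3p: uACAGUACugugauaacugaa
Counted from 1 at the 5′ end, miR-29a-3p and miR-29c-3p differ by a single substitution, C10U. The first 17 bases of miR-29b-3p and miR-29c-3p are the same, and over the 22 bases compared they differ by A18G, G21U and U22A. The last 6 bases of miR-29b-3p, AGUGUU, form a terminal motif known from work on nuclear import of this miRNA. Of the 2370 mature names in the RefSeq table, 2 end in these letters, the other being miR-519e-3p. No further mature miRNA of that table has the seed of the miR-29 guides, and none other has that of miR-101-3p. With bases 2 to 7 alone, miR-6871-3p matches miR-29 and miR-144-3p matches miR-101-3p. Both were near absent, with at most 2 counts in any library.

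The passenger arms carry other seeds, and they are shown because they tell apart hairpins that the guides cannot.
miR-29a-5p: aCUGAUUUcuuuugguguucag
miR-29b-1-5p: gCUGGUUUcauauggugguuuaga
miR-29b-2-5p: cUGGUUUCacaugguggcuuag
miR-29c-5p: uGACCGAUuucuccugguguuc
miR-101-5p: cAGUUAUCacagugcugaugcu
The guide miR-29b-3p is identical from hsa-mir-29b-1 and hsa-mir-29b-2. Their passengers match at 20 of 22 bases when miR-29b-2-5p is set to start 1 base further in, so the seeds are shifted by that base. No other mature miRNA in the RefSeq table has the seed of any of these 5 passengers.

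The 4 miR-29 hairpins lie in a pair of clusters. An exact match of the RefSeq hairpins placed hsa-mir-29a at chr7:130561506-130561569 and hsa-mir-29b-1 at chr7:130562218-130562298 (GRCh37, minus strand), 648 bases apart. Both overlap an annotated exon of the long non-coding RNA LINC-PINT and, on the opposite strand, an intron of LINC00513. The other cluster holds hsa-mir-29c at chr1:207975197-207975284 and hsa-mir-29b-2 at chr1:207975788-207975868 (GRCh37, minus strand), 503 bases apart in exons of their host transcript MIR29B2CHG. The miR-101 hairpins are on different chromosomes. hsa-mir-101-1 lies in an intron of JAK1 at chr1:65524117-65524191 (GRCh37, minus strand). hsa-mir-101-2 lies in an intron of RCL1 at chr9:4850297-4850375 (GRCh37, plus strand), and an exon of a long non-coding RNA on the opposite strand overlaps it.

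The libraries held 1636834 (control), 2892684 (miR-1) and 2577292 (miR-122) mature miRNA counts, of which 1636481, 1791702 and 1947669 remained once the synthetic hairpins were set aside. Each induced miRNA was found in its own library, miR-1-3p at 1100840 counts against at most 369 elsewhere and miR-122-5p at 627576 counts against 10. A list of 10 miRNAs typical of blood, endothelium, fibroblasts and smooth muscle made up between 0.354% and 0.409% of endogenous counts. Most of these were miR-126-3p, an endothelial miRNA, and miR-223-3p and miR-214-3p had no count in any library. The part of such cells in the results was not tested, and the libraries hold no messenger RNA with which to check the cell line.

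miR-101-3p was by far the most abundant member. It had 20914 counts in control cells, 26158 with miR-1 and 15001 with miR-122. These were 1.28% (95% Wilson interval 1.26% to 1.30%), 1.46% (1.44% to 1.48%) and 0.770% (0.758% to 0.783%) of endogenous counts, and ranks 21, 18 and 28 among endogenous miRNAs. The share was highest in the miR-1 library and lowest in the miR-122 library, with no overlap of the counting intervals. In RNA from a whole culture, fewer cells with a miRNA and fewer copies per cell cannot be told apart.

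The miR-29 guides stood an order of magnitude lower. miR-29a-3p, the most abundant of them, had 1277, 1178 and 1182 counts (ranks 95, 96 and 100). miR-29b-3p had 338, 262 and 254 counts. miR-29c-3p had 128, 103 and 59 counts. The order miR-29a-3p, miR-29b-3p, miR-29c-3p was the same in each library, and the exact Poisson intervals of these neighbours did not overlap.

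The passenger arms were scarce, except that of miR-29c. miR-29c-5p had 69, 76 and 85 counts, and miR-29b-2-5p had 32 in each. miR-29b-1-5p had 2, 3 and 1, and miR-101-5p had 3, 7 and 1. miR-29a-5p had 0, 5 and 2. A count of 0 in the control library allowed up to 3 counts, or 1.83 reads per 1000000 (RPM). At such counts, a difference in miR-29a-5p, miR-29b-1-5p or miR-101-5p was not detectable at this depth. The plot of counts by library shows that the members span over 4 orders of magnitude and keep much the same order in each library, except that the miR-29c arms trade places in miR-122.

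**Figure D1:**
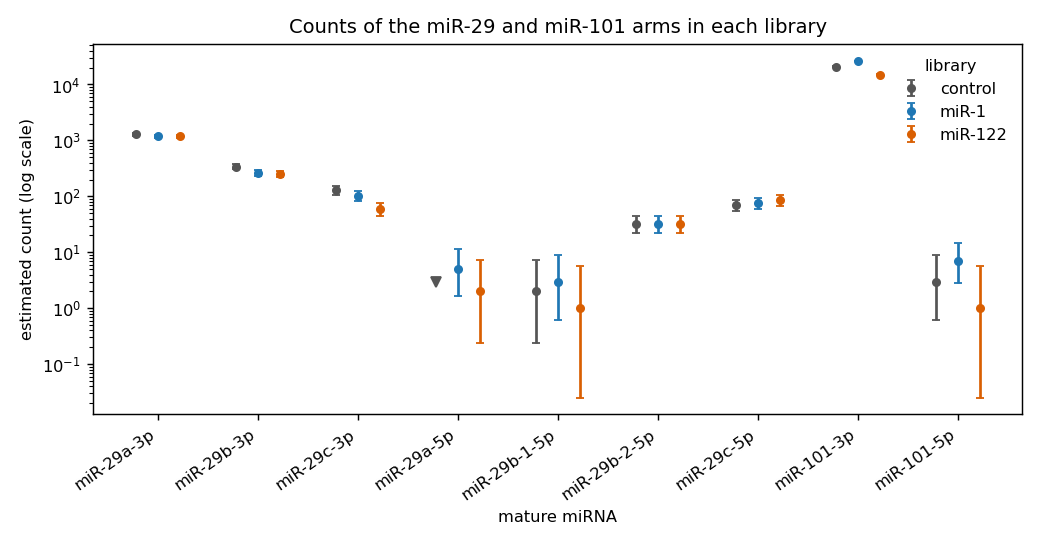
Estimated counts (log axis) of the 9 members by library (colours: control, miR-1, miR-122); bars are exact 95% Poisson intervals and the triangle marks the limit of 3 counts for miR-29a-5p, which had 0 in the control. miR-101-3p lies between 15001 and 26158 counts, and miR-29c-3p is at 128, 103 and 59 while miR-29c-5p is at 69, 76 and 85.

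The comparison of the lines asked whether the endogenous members differed once an exogenous miRNA was induced. For it, libraries were scaled by TMM, a trimmed mean of ratios, over the 514 endogenous miRNAs that averaged 10 or more counts, with the synthetic miRNAs left out. Endogenous here means every miRNA not listed under a synthetic hairpin. That set still held miR-3591-5p, which RefSeq places on the strand opposite MIR122 and which had 1, 0 and 1756 counts. Without it the ratios of the members were the same to 2 decimals, and so were the calls. Of the 9 members 6 passed that limit: the 4 guides, miR-29b-2-5p and miR-29c-5p. A ratio of at least 1.5-fold was taken as a call, which is a limit of size and not a test.

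Between the miR-1 and control libraries none of the 6 passed 1.5-fold. Of all 514 miRNAs, 7.39% were at least 1.5-fold higher and 9.34% at least 1.5-fold lower in that comparison. All 3 miR-29 guides had negative log2 ratios, of -0.21 for miR-29a-3p (95% counting interval -0.33 to -0.09), -0.46 for miR-29b-3p (-0.70 to -0.22) and -0.40 for miR-29c-3p (-0.80 to -0.02). Their summed counts, 1743 in control and 1543 in miR-1, gave a log2 ratio of -0.27 (-0.37 to -0.17), where the median of all 514 was -0.00. miR-101-3p lay on the other side, at 0.23 (0.20 to 0.26). Scaled by the total count with the induced miRNA it was at -0.50, where the median of all 514 was -0.73. Of the 108 miRNAs that averaged 1000 or more counts, 7 had a higher ratio of miR-1 to control than miR-101-3p. In that set, where counting error is small, 12 had a lower ratio than miR-29a-3p. This comparison was added after seeing the data. Counted from the lowest of all 514, miR-101-3p ranked 397 and miR-29a-3p ranked 132.

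Between the miR-122 and control libraries 2 of the 6 passed 1.5-fold, both lower in miR-122, beside 15.8% of all miRNAs that were at least 1.5-fold lower and 11.3% that were at least 1.5-fold higher. miR-101-3p was 1.56-fold lower (95% counting interval 1.52 to 1.59), a log2 ratio of -0.64, and miR-29c-3p was 2.41-fold lower (1.77 to 3.36), a log2 ratio of -1.27. Just inside the limit lay miR-29b-3p, 1.48-fold lower (1.26 to 1.76); by total endogenous counts it passed the limit, at a log2 ratio of -0.66. miR-29a-3p was 1.21-fold lower (1.11 to 1.31), and the summed guides, at 1495 counts in the miR-122 library, were 1.30-fold lower (1.21 to 1.40). The passengers miR-29b-2-5p and miR-29c-5p had log2 ratios of -0.16 and 0.14, with intervals that held 0. With the induced miRNA in the total miR-29c-5p was at -0.36, where the median of all miRNAs was -0.53. Of the 108 abundant miRNAs, 8 had a lower ratio than miR-101-3p, which ranked 70 from the lowest of all 514. With 2 calls among 6 members, against 15.8% over all miRNAs, the count itself is too small to set the families apart.

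Between the miR-122 and miR-1 libraries the same 2 members passed 1.5-fold, again lower in miR-122, beside 14% of all miRNAs lower and 9.14% higher by that limit. miR-101-3p was 1.83-fold lower (95% counting interval 1.79 to 1.86), and 2 of the 108 abundant miRNAs had a lower ratio. It ranked 39 from the lowest of all 514. miR-29c-3p was 1.83-fold lower as well (1.31 to 2.56), from 103 to 59 counts. The log2 ratios of the other miR-29 guides were -0.06 for miR-29a-3p and -0.11 for miR-29b-3p, and both intervals held 0. Scaled by the total with the induced miRNAs both were above 0, at 0.17 and 0.12, where the median of all miRNAs was 0.22. The 3 comparisons share libraries in pairs and are not independent of each other.

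**Figure D2:**
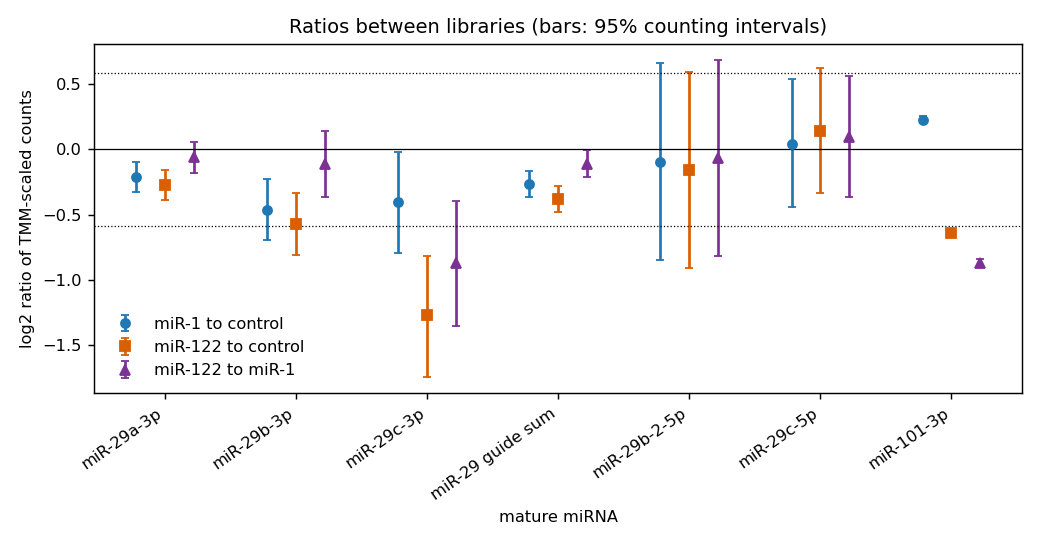
Log2 ratios of TMM-scaled counts between libraries for the 6 members that averaged 10 or more counts and for the summed miR-29 guides; bars are 95% counting intervals and dotted lines mark 1.5-fold. In miR-122 to control miR-29c-3p lies at -1.27 and miR-101-3p at -0.64, beyond the dotted line, while miR-29a-3p lies at -0.27.

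The plot of all 514 miRNAs places these values against mean count. Ratios scatter most at low counts and least at high counts, where miR-101-3p lies. miR-29c-3p, at a mean of 96.8 counts, lies between these ends, and the spread near its count was not computed. The robust spread (the median absolute deviation, scaled to an SD) of the log2 ratio of miR-122 to control was 0.52 over all miRNAs and 0.40 over the 108 abundant ones. In miR-1 to control it was 0.31 and 0.18. The miR-122 and control libraries thus differed more among endogenous miRNAs at large than the miR-1 and control libraries did.

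**Figure D3:**
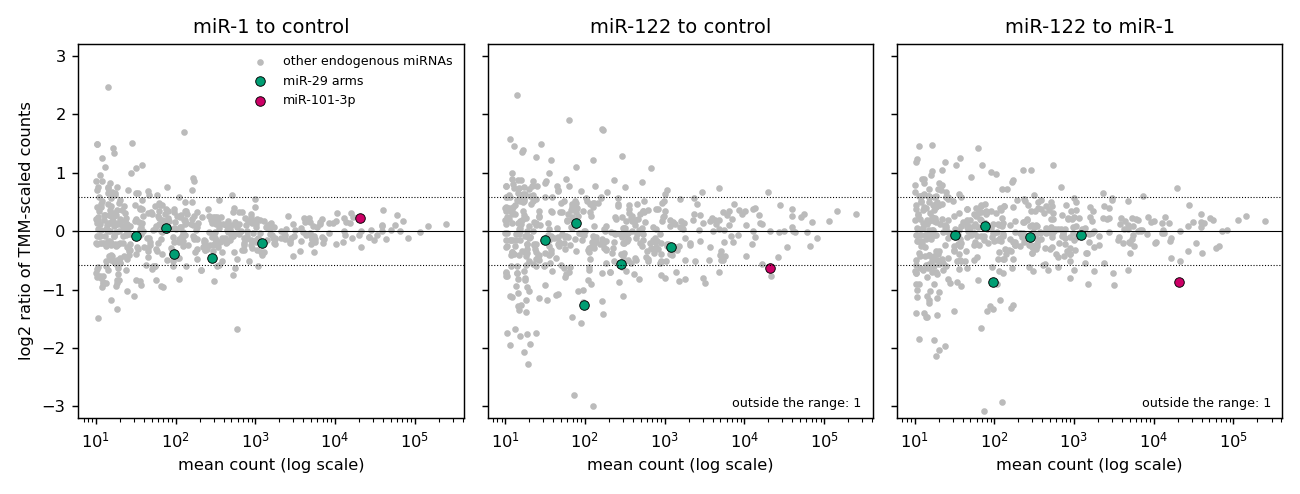
Log2 ratio of TMM-scaled counts against mean count (log axis) for 514 endogenous miRNAs in each pair of libraries, with the miR-29 arms in green and miR-101-3p in magenta; dotted lines mark 1.5-fold, and miR-3591-5p lies outside the range in both miR-122 panels. miR-101-3p, at a mean of 20691 counts, lies at 0.23, -0.64 and -0.87 from left to right.

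Ratios of members within a library need no scaling. miR-101-3p had 12 counts per count of the summed miR-29 guides in control cells (95% counting interval 11.4 to 12.6), 17.0 with miR-1 (16.1 to 17.9) and 10.0 with miR-122 (9.51 to 10.6). The ratio was thus 1.41-fold higher in miR-1 than in control (1.32 to 1.52). In miR-122 it was 1.20-fold lower than in control (1.11 to 1.29). The change from miR-1 to miR-122 was 1.69-fold (1.57 to 1.82). Reads of different miRNAs are ligated with different efficiency, so such a ratio is read across libraries and not as a ratio of molecules.

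The make-up of the miR-29 guides differed most in the miR-122 library. miR-29a-3p was 73.3% of the summed guides in control (95% Wilson interval 71.1% to 75.3%), 76.3% in miR-1 (74.2% to 78.4%) and 79.1% in miR-122 (76.9% to 81.1%). miR-29b-3p was 19.4%, 17.0% and 17.0%. miR-29c-3p fell short in the miR-122 library alone, at 3.95% (3.07% to 5.06%) against 7.34% in control (6.21% to 8.66%) and 6.68% in miR-1 (5.53% to 8.03%). Put as a ratio, miR-29a-3p had 10.0 counts per count of miR-29c-3p in control and 20.0 in miR-122, a 2.01-fold change (1.45 to 2.81). These guides differ only by C10U, and how many mismatches the authors allowed is not given in the sources used here. The counts of miR-29a-3p were whole numbers in every library, whereas 5 of the 11 member rows held fractions of reads, those of miR-29b-3p, miR-29c-3p and miR-101-3p.

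The arms of the same hairpin did not move together in miR-29c. Of all miR-29c reads the guide took 65.0% in control cells (95% Wilson interval 58.1% to 71.3%), 57.5% with miR-1 (50.2% to 64.5%) and 41.0% with miR-122 (33.3% to 49.1%). The control and miR-122 intervals did not overlap, and the miR-122 library was the only 1 of the 3 with more passenger than guide counts. Guide counts per passenger count were 2.67-fold lower in miR-122 than in control (95% counting interval 1.68 to 4.26). In miR-1 they were 1.37-fold lower than in control, with an interval from 0.883 to 2.12 that held 1. On the TMM scale miR-29c-3p stood at -1.27 and miR-29c-5p at 0.14 in miR-122 to control; scaled by the total with the induced miRNA they stood at -1.77 and -0.36.

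Other hairpins served as the background of this arm shift. Of 123 endogenous pairs in which each arm averaged 10 or more counts, 39.8% changed their 3p to 5p ratio by at least 1.5-fold between miR-122 and control, and 19.5% did so between miR-1 and control. The change of miR-29c, -1.41 on the log2 scale in miR-122 to control, was the fourth lowest of the 123, and 7 pairs, miR-29c included, changed as much in either direction. In miR-1 to control its change of -0.45 ranked 18 from the lowest, and 34 pairs, again with it, changed as much. Among the 71 pairs in which each arm averaged 50 or more counts, 32.4% and 7.04% passed 1.5-fold and miR-29c ranked 2 and 5 from the lowest. Both sets of pairs were chosen after the counts of miR-29c had been seen.

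In the other pairs the guide dominated in all 3 libraries. The 3p arm of miR-29a was 100% of 1277 counts in control (Wilson interval from 99.7%), 99.6% in miR-1 and 99.8% in miR-122. For miR-29b, with the passengers of both hairpins added, it was 90.9% (87.5% to 93.4%), 88.2% (84.1% to 91.4%) and 88.5% (84.3% to 91.7%), and these intervals overlapped. For miR-101 it was 99.99% in control, 99.97% in miR-1 and 99.99% in miR-122, with the arm of hsa-mir-101-1 as the only passenger counted. The passenger of hsa-mir-101-2 was not analysed here.

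**Figure D4:**
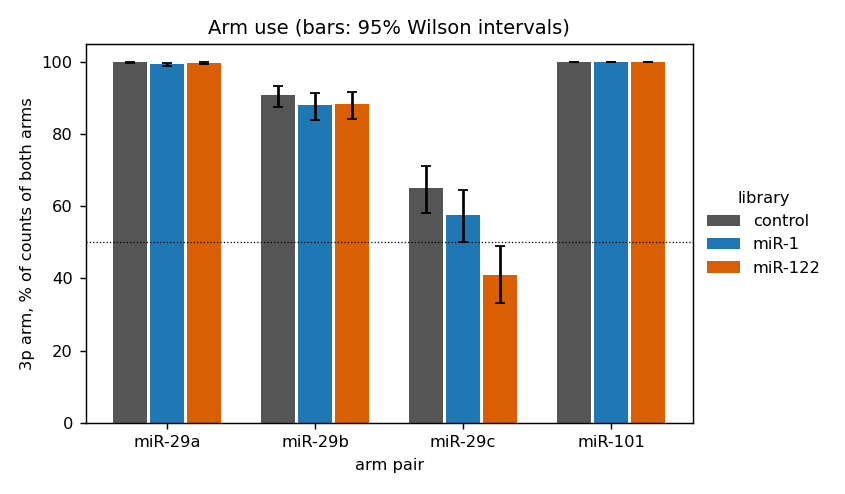
Share of the 3p arm in the counts of both arms (%) for miR-29a, miR-29b, miR-29c and miR-101 by library (colours: control, miR-1, miR-122); error bars are 95% Wilson intervals and the dotted line marks 50%. The miR-29c bars stand at 65.0%, 57.5% and 41.0%, while the miR-29a and miR-101 bars are all above 99%.

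The passengers also separated the clusters. Of the counts of both miR-29b passengers, miR-29b-2-5p from chromosome 1 had 32 of 34 in control, 32 of 35 in miR-1 and 32 of 33 in miR-122, or 94.1% (95% Wilson interval 80.9% to 98.4%), 91.4% (77.6% to 97%) and 97% (84.7% to 99.5%). Over all 4 miR-29 passengers, the chromosome 1 pair held 101, 108 and 117 counts and the chromosome 7 pair 2, 8 and 3. Guides ran the other way, since miR-29a-3p, which comes from chromosome 7 alone, outnumbered miR-29c-3p, from chromosome 1 alone, in each library. Passenger counts depend on decay as well as on transcription, so they do not say how much of miR-29b-3p each hairpin made.

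The table divided reads of miR-29b-3p almost evenly between its hairpins, 169.5 and 168.5 counts in control, 130.83 each in miR-1 and 127 each in miR-122. Reads of miR-101-3p were divided less evenly. hsa-mir-101-2 was given 372 counts more than hsa-mir-101-1 in control, 513 more in miR-1 and 362 more in miR-122, which were 1.78%, 1.96% and 2.41% of the miRNA's counts. The hairpins are shown because they bear on this, with the arms in capitals (RefSeq, GRCh38.p14).
hsa-mir-101-1: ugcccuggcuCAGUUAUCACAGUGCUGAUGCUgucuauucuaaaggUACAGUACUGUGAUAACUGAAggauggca
hsa-mir-101-2: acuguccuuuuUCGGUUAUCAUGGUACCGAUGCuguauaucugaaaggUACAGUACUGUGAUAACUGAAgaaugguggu
Beyond the 3p arm the hairpins share 1 base and differ at base 2, and before it they share 5. A read that ends within the shared bases cannot be assigned to a locus, and the read sequences were not analysed here.

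Other miRNAs known to repress chromatin regulators were taken as a list of 17, of which 13 averaged 10 or more. None of the 13 was at least 1.5-fold higher in any comparison. Of all 514 miRNAs, 7.39% were that much higher with miR-1 and 11.3% with miR-122, each against control. The share was 9.14% for miR-122 over miR-1. A list of 13 is too short to be set apart from such shares. Nearest the upper limit were miR-200b-3p (log2 0.57, from 8 to 13 counts) and miR-143-3p (log2 0.50), both for miR-1 over control. In miR-1 to control 1 of the 13 was lower, beside 9.34% of all miRNAs. This was miR-138-5p, a repressor of EZH2, from 85 to 47 counts (log2 -0.94). In miR-122 to control again only miR-138-5p passed the limit, at 62 counts (log2 -0.61), beside 15.8% of all miRNAs lower. Between miR-122 and miR-1 2 were lower, beside 14% of all miRNAs, namely miR-152-3p, from 1125 to 678 counts (log2 -0.80), and miR-143-3p, from 169 to 107 counts (log2 -0.72), which are known to repress DNMT1 and DNMT3A. These counts of lower miRNAs lay near or under those shares. The median log2 ratios of the 13 were -0.01, -0.14 and -0.10 in these comparisons, against -0.00, -0.04 and -0.01 over all 514 miRNAs.

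miR-26a-5p, which like miR-101-3p is known to repress EZH2, had 30202, 28874 and 33780 counts, with log2 ratios to control of -0.16 and 0.00. Its relative miR-26b-5p had 5321, 5170 and 4697 counts. miR-148a-3p, a repressor of DNMT1, had 122214, 138175 and 173708 counts, with log2 ratios to control of 0.08 and 0.35, and its relative miR-148b-3p had 11383, 10364 and 9452, with -0.23 and -0.43. Of the DNMT1 repressors miR-185-5p and miR-342-3p, the former had log2 ratios to control of -0.01 and 0.22 and the latter of -0.30 and -0.39. miR-22-3p, a repressor of TET2, stayed within 0.06 of control on the log2 scale in both lines. miR-449a, a repressor of HDAC1, had between 73 and 79 counts, miR-203a-3p between 14 and 17 and miR-200b-3p between 8 and 13. The remaining miR-144-3p, miR-214-3p, miR-429 and miR-137 had at most 4 counts in any library.

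Among 260 other endogenous miRNAs that averaged 100 or more counts, those nearest to the summed miR-29 guides in both log2 ratios to control were miR-34c-5p (-0.28 in miR-1 and -0.38 in miR-122), miR-342-3p (-0.30 and -0.39) and miR-106b-5p (-0.23 and -0.41), where the guides were at -0.27 and -0.38. Nearest to miR-101-3p, at 0.23 and -0.64, were miR-17-3p (0.16 and -0.52), miR-152-3p (0.28 and -0.51) and miR-421 (0.11 and -0.51). Nearness was the larger of the differences in the ratios, at most 0.04 for the miR-29 neighbours and 0.13 for those of miR-101-3p. It rests on 3 libraries with a shared control and is a description.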

How the data were processed

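Small RNA libraries were prepared from 1000 ng of total RNA with the NEBNext small RNA kit. The authors trimmed adapters, removed reads under 18 nt, collapsed identical reads while keeping their number, and used miRDeep2 to align them to human hairpins of miRBase release 21 plus the synthetic hairpins. The deposited values are estimated counts, with a read of several hairpins divided among them. The authors also deposited reads per 1000000 (RPM), scaled to a total that includes the induced miRNA. The submitters' processing notes name hg19, and counting used hairpins only. Pooled totals were not used.

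Counts were added by mature name, and TMM (edgeR 4.0.16, R 4.3.3) scaled the endogenous miRNAs that averaged 10 or more counts. Log2 ratios used a pseudocount of 0.5. Intervals are at 95%: exact Poisson for counts, Clopper-Pearson for ratios on rounded counts, Wilson for shares, and exact conditional for changes of a ratio within a library. For a count of 0 the limit shown is a fixed 3 counts, below the upper end of the exact Poisson interval, 3.69. Scaling and intervals were tested on simulated Poisson counts with planted changes. These held no variation between libraries beyond counting error, so the simulation does not bear on the lack of replicates. With 1 library per line, intervals cover counting error only. Reads carried no molecular identifiers, so PCR copies were counted as separate reads and the intervals may be too narrow. In control, miR-1 and miR-122, 1 count equals 0.611, 0.346 and 0.388 RPM.

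Members and lists were chosen with earlier results of these data known. Named miRNAs were all members, the chromatin-linked list where it averaged 10 or more (and its other members by count), the 3 nearest patterns and sharers of a seed. Alternatives were other scalings (DESeq2 1.42.0 size factors, totals), pseudocounts, filters, fold limits and 1 hairpin row, the highest, per miRNA.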

Additional observations from a re-analysis of the deposited data

How the results depend on the processing

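No paired analysis was possible because every line gave a single library. Under DESeq2 size factors, a pseudocount of 5 and the highest hairpin row, each of the 21 log2 ratios of members kept its sign and stayed within its counting interval. Scaling by the total endogenous count also kept every sign and moved 3 of them out of that interval, those of miR-101-3p, to 0.19, -0.73 and -0.92 (for miR-1 over control, miR-122 over control and miR-122 over miR-1, the order kept below). With induced miRNAs kept in the library total, the median of all miRNAs lay at -0.73, -0.53 and 0.22, by the construction of that scale. miR-101-3p was then at -0.50, -1.13 and -0.64 and the summed miR-29 guides at -1.0, -0.88 and 0.12. It changed the sign of 7 of the 21 ratios, and 5, 5 and 2 members were past 1.5-fold. The share of all miRNAs past that limit was not computed on that scale. With the medians so far from 0, these counts are not a result about the members.

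The number of members past 1.5-fold was 0, 2 and 2 as reported. It was 2, 5 and 5 of 9 with no filter, 0, 1 and 1 of 3 with an average of 100 or more counts, and 0, 1 and 0 of 6 at a limit of 2-fold. Under total endogenous counts and under the highest hairpin row it was 0, 3 and 2, with miR-29b-3p as the further member. The calls added by leaving out the filter were passengers of 7 or fewer counts. The share of all miRNAs past the limit was not computed at these settings, so these counts have no background beside them. The highest hairpin row lowered the 3p share of miR-29b to between 78.9% and 83.3% and raised the share of miR-29a-3p in the guides to between 81.1% and 86.4%, since miR-29b-3p has 2 hairpins. Ranks among abundant miRNAs the comparison with other arm pairs and scaling without miR-3591 were added after seeing the data. Without miR-3591 the share of all miRNAs past 1.5-fold upward was 7.41%, 11.1% and 8.97%, and downward 9.16%, 15.8% and 14%. Counts of 7 or fewer limit what can be said of 3 passengers, and the lack of replicates limits the rest.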
